A study of Mus musculus with 18 samples.

Results

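CD49a+ NK cells of liver metastases (LM) were compared with the NK cells of metastasis-free liver (MFL), the first with 3 RNA-seq libraries and the second with 3 others. The comparison was chosen with earlier results of these data known, and its libraries were taken by their labels. They are 6 of the 18 libraries of the series and 6 of its 12 lymphocyte libraries. All came from female C57BL6/J mice, 8 to 10 weeks old, whose metastases had grown for 20 days after colon adenocarcinoma cells of the mouse line MC38 were placed in the spleen, and each library was sorted from a pool of 6 to 8 samples of one tissue. Both populations were live, lineage-negative, CD45+, NKp46+ and CD49b+, and they differed in the sort by CD49a, which was present on the LM cells and absent on the MFL cells. The comparison therefore joins a change of tissue with a change of phenotype. LM CD49a- NK cells (CD49a-CD49b+, 3 libraries) and MFL ILC1 (CD49a+CD49b-, 3 libraries), from the same model, are given beside some results, because these share the site or the CD49a with those cells. The titles of the 3 LM CD49a+ samples read ILC1, whereas their population and cell type labels name CD49a+CD49b+ NK cells, and the latter name is used.

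NK cells circulate through the blood and kill stressed or transformed cells with perforin and granzymes. As they mature they gain the integrin CD11b, Ly49 receptors and a transcriptional program in which Zeb2 and T-bet take part. Liver ILC1 are a related resident population, marked by CD49a, the collagen-binding α1 integrin, and by the death ligand TRAIL, and NK cells exposed to TGF-β in tumors are known to take on some of their genes.

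Total counts were 12752209 to 13169511 per MFL NK library and 10591055 to 11943368 per LM CD49a+ NK library. Between replicates the biological coefficient of variation was 0.511 in MFL NK and 1.07 in LM CD49a+ NK cells. LM values thus carry the larger error. The tissues were also dissociated differently, since metastases were digested with Liberase TL and DNase I at 37°C and liver parenchyma was smashed and filtered, so tissue and dissociation cannot be told apart in this comparison. Nothing in the labels states that the pools shared no animals, and p-values measure the spread between these libraries. With 3 libraries against 3, an exact two-sided permutation test cannot go below 0.1, so calls rest on the fit across all genes.

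The sorting markers followed their labels. Itga1, which encodes CD49a, was at 20.1, 6.93 and 7.41 CPM (counts scaled to 1000000 per library after TMM) in MFL NK libraries 1 to 3 and at 156, 143 and 105 CPM in LM CD49a+ NK libraries 1 to 3. Itga2, which encodes CD49b and was required on both populations, was detected in all 6 libraries, at 364, 299 and 376 CPM in MFL NK and at 65.7, 102 and 219 CPM in LM CD49a+ NK cells. Its 2 groups did not overlap, but the log2 difference of −1.43 ± 0.37 (SE) was not called (adjusted p = 0.128), and it was called without LM CD49a+ NK replicate 3 (adjusted p = 0.0109). Ncr1, which encodes NKp46, was at 1076, 1011 and 866 CPM in MFL NK and at 495, 752 and 498 CPM in LM CD49a+ NK cells (log2 difference −0.76 ± 0.22, adjusted p = 0.239). It was called without LM CD49a+ NK replicate 2 (adjusted p = 0.0705).

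Markers of other cell types differed between the groups in both directions. None of the 8 hepatocyte markers tested was called by edgeR (4 had an unadjusted p under 0.05). Their summed level was 18.2 to 151 CPM in MFL NK and 1.56 to 14.8 CPM in LM CD49a+ NK cells, without overlap. Alb was at 11.2, 0.235 and 0 CPM in LM CD49a+ NK cells. It was called without LM CD49a+ NK replicate 1 (adjusted p = 0.0165) and without the filter on low counts. Summed T cell markers (8 tested, none called, 3 with an unadjusted p under 0.05) were at 143 to 241 CPM in MFL NK and at 316 to 500 CPM in LM CD49a+ NK cells, without overlap. Of the 8, 5 had a log2 fold change above 0 and 3 below. Trac, one of the 3, was at 0, 0.235 and 0 CPM in LM CD49a+ NK cells. Macrophage and monocyte markers (5 tested, none called, 1 with an unadjusted p under 0.05) summed to 38.8 to 74.3 CPM and 62.1 to 109 CPM. Erythroid markers (5 tested, none called, 1 with an unadjusted p under 0.05) summed to 226 to 758 CPM and 82.3 to 242 CPM. Endothelium and stroma markers (4 tested, none called, 3 with an unadjusted p under 0.05) summed to 87.4 to 142 CPM in MFL NK and to 222 to 292 CPM in LM CD49a+ NK cells, without overlap. Most of this sum was Pecam1. Of the 4, 2 had a log2 fold change above 0 and 2 below, and Cdh5 was at 0 CPM in each of the 3 LM CD49a+ NK libraries. B cell markers (2 tested, none called, both with an unadjusted p under 0.05) summed to 30.4 to 72.9 CPM and 117 to 121 CPM, also without overlap. All of the LM CD49a+ NK sum was Ighm, and Cd79b was at 0 CPM in those libraries. Only 3 of 9 markers of tumor epithelium passed the filter on low counts, Cdh1, Epcam and Cd24a, and 1 was called (Cdh1, below). They summed to 1.77 to 4.65 CPM in MFL NK and to 23.8 to 51.5 CPM in LM CD49a+ NK cells, without overlap. Of these Epcam was at 2.53, 0 and 1.03 CPM in MFL NK and at 10.5, 5.4 and 0 CPM in LM CD49a+ NK cells. The part of such cells in the results was not tested. In bulk samples such as these, fewer cells of a type and less RNA per cell cannot be told apart.

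Of 13594 genes tested, 88 were called between LM CD49a+ NK and MFL NK cells at an adjusted p under 0.1 (0.647% of the genes), 58 of them higher (0.427%) and 30 lower (0.221%) in LM CD49a+ NK cells. Protein-coding genes made up 84 of them. The shares of 0.427% higher and 0.221% lower over all genes are the background of the list counts below. The median log2 fold change over all genes was −0.04. By edgeR 1324 genes had an unadjusted p under 0.05, and in 7.06% of all genes every LM CD49a+ NK library lay above every MFL NK library, while in 13% every one lay below. Leaving out MFL NK replicate 1, 2 or 3 brought the calls to 16 higher and 10 lower, 23 and 14, and 14 and 12, respectively. Without LM CD49a+ NK replicate 1, 2 or 3 they were 33 and 19, 98 and 64, and 41 and 32. A core of 21 genes, 12 higher and 9 lower, was called whichever of the 6 libraries was left out, and the genes described as called in every such fit below belong to it.

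**Figure D1:**
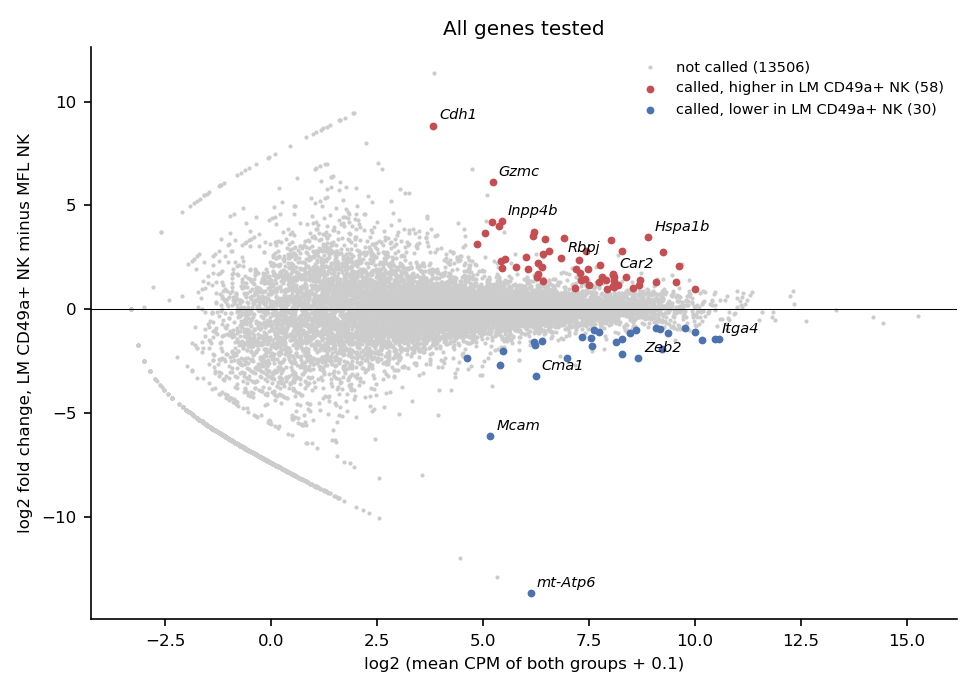
Every gene tested is a point, with the log2 of its mean CPM over the 6 libraries plus 0.1 on the x axis and its log2 fold change (LM CD49a+ NK minus MFL NK) on the y axis. Red points are the 58 genes called higher and blue points the 30 called lower, with Cdh1 at the upper and mt-Atp6 at the lower end of the called genes, and the curved edges at low CPM are genes with no counts in one group.

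Genes of liver ILC1 and of tissue residency were higher. Of 28 such genes tested, 9 rose and none fell in LM CD49a+ NK cells (1 of the 28 had every library lower). The median log2 fold change of the list was 2.02. This list was chosen with earlier results known. It holds Sema6d, Gzmc, Inpp4b, Itga1, Socs2, Ahr and Tnfsf10, which the paper reported as raised in CD49a+ NK cells from the same libraries. It also holds Nt5e, a member of the CD49a+ NK signature that the paper drew from them. The count and median of the list are thus a description and no independent test. For Itga1, whose levels stand above and which defined the sort, the log2 fold change was 3.55 ± 0.42 (adjusted p = 0.00039), and it was larger without MFL NK replicate 1 (4.22). Inpp4b, a lipid phosphatase that limits PI3K signaling, was at 0.245, 7.52 and 5.21 CPM in MFL NK and at 107, 59.5 and 80.8 CPM in LM CD49a+ NK cells. Every LM library was far above every MFL library, by 4.24 ± 0.65 on the log2 scale (adjusted p = 0.00477) or by 4.89 without MFL NK replicate 2. The granzyme gene Gzmc was close to 1 CPM in each MFL NK library (1.06, 1.03 and 1.03) and at 139, 53 and 28.6 CPM in LM CD49a+ NK cells. The LM libraries did not overlap with the MFL libraries but differed widely among themselves (log2 fold change 6.13 ± 0.86, adjusted p = 0.00183, and 5.27 without LM CD49a+ NK replicate 1). Since Gzmc lies among related granzyme genes, reads may be shared between them.

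Ahr, a ligand-activated transcription factor needed by liver ILC1, was at 5.47, 17.1 and 8.88 CPM in MFL NK and at 159, 89.9 and 163 CPM in LM CD49a+ NK cells, a log2 fold change of 3.71 ± 0.50 (adjusted p = 0.00143). Like Itga1, Inpp4b and Gzmc, it was called in every fit that left out a library. Tnfsf10, which encodes TRAIL, rose from 16.3, 13.9 and 11.9 CPM to 53.7, 105 and 55 CPM (log2 fold change 2.34 ± 0.42, adjusted p = 0.0182), and was lost without MFL NK replicate 3 (adjusted p = 0.117). Xcl1, the chemokine that draws cross-presenting dendritic cells, was at 16, 26.1 and 15.6 CPM in MFL NK and at 197, 67.1 and 62.3 CPM in LM CD49a+ NK cells. The first LM library was the highest of the 3, and the log2 fold change of 2.50 ± 0.47 (adjusted p = 0.0212) was 1.74 without it (adjusted p = 0.139). Xcl1 was not called without MFL NK replicate 1 or 3 either (adjusted p = 0.151 and 0.135). Nt5e, which encodes CD73, the enzyme that makes adenosine from AMP, was at 17.4, 14.2 and 11 CPM against 81.1, 52.4 and 96.5 CPM (log2 fold change 2.43 ± 0.48, adjusted p = 0.0262). It was called in 1 of the 6 fits that left out a library, without LM CD49a+ NK replicate 2, and had adjusted p of 0.102 to 0.225 in the others. Ly6e, a GPI-anchored protein induced by interferon (1.56 ± 0.29, adjusted p = 0.0212, lost without MFL NK replicate 1 or 3 or LM CD49a+ NK replicate 1 with adjusted p of 0.104 to 0.144), and Klrb1b, an inhibitory receptor of the NKR-P1 family (1.14 ± 0.27, adjusted p = 0.0813, called in 1 of 6 such fits, without LM CD49a+ NK replicate 2, and at 0.148 to 0.416 in the others), completed the 9.

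Set beside the other populations, these genes did not all stand at the same place. In LM CD49a- NK cells, Itga1 was at 11.4, 17.1 and 5.83 CPM, Inpp4b at 3.01, 1.22 and 0.788 CPM and Gzmc at 9.36, 0.222 and 5.2 CPM. All 3 were called higher in LM CD49a+ than in LM CD49a- NK cells, by 3.56 (adjusted p = 0.00198), 5.65 (adjusted p = 0.00307) and 3.90 (adjusted p = 0.0853) on the log2 scale, in a comparison that shares the LM CD49a+ NK libraries and in which 19 of all genes were called (0.14%), 9 higher (0.0662%) and 10 lower (0.0736%). The value of Inpp4b was 6.37 without LM CD49a- NK replicate 1, and that of Gzmc 4.71 without the same library and 3.03 without LM CD49a+ NK replicate 1. Gzmc was not called without LM CD49a+ NK replicate 1 or 2 (adjusted p = 0.29 and 0.104) or from the 6 libraries of that comparison alone (0.962). With limma-voom in place of edgeR none of the 3 was called (adjusted p of 0.135 to 0.879). Ahr was at 41.8, 71.1 and 17.6 CPM in LM CD49a- NK cells, above its MFL NK levels, and its difference from LM CD49a+ NK cells was not called (1.66, adjusted p = 0.28). Nor was that of Tnfsf10 (1.82, adjusted p = 0.151). In MFL ILC1, Itga1 reached 646 to 680 CPM, Inpp4b 421 to 447 CPM, Tnfsf10 368 to 449 CPM and Gzmc 146 to 167 CPM, all above the LM CD49a+ NK libraries. Ahr, at 102 to 110 CPM in MFL ILC1, lay within the range of the LM CD49a+ NK libraries.

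Cdh1, which encodes E-cadherin, a ligand of the inhibitory receptor KLRG1, had the largest fold change among called genes that rose. The gene (chromosome 8, 107329941 to 107396880 in GRCm39) had 0, 2 and 0 counts in MFL NK and 148, 235 and 517 counts in LM CD49a+ NK cells, or 14.3, 18.4 and 51.5 CPM. Its ratio of summed counts, scaled for library size, was 535, with a 95% interval of 148 to 4428 that covers counting error only, and its adjusted p was 0.0071. The fitted log2 fold change of 8.84 depends on those 2 counts and was 11.3 without the MFL NK library that held them and 8.07 without LM CD49a+ NK replicate 3, with the call kept in both. Cdh1 was at 0, 1.99 and 3.15 CPM in LM CD49a- NK cells and at 74.7, 46.8 and 46 CPM in MFL ILC1. The gene is also on the list of tumor epithelium markers. Epcam, another of these, was at 0 CPM in LM CD49a+ NK library 3, where Cdh1 was highest. In the other LM CD49a+ NK libraries Epcam was above every MFL NK library. The part of tumor cells in the Cdh1 counts was not tested.

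Genes of circulating and mature NK cells were lower. Of 23 tested, 7 fell and none rose, and the median log2 fold change was −1.17. Their summed level was 13500 to 16300 CPM in MFL NK and 6710 to 8640 CPM in LM CD49a+ NK cells. This list too was chosen with earlier results known. It holds Itga2, Itga4, Itgam, S1pr5 and Cx3cr1, which the paper reported as low in CD49a+ NK cells from the same libraries. Its count, median and sum are thus a description and no independent test. Zeb2 (chromosome 2, 44873644 to 45007464), a repressor that drives the terminal maturation of NK cells, was at 689, 602 and 728 CPM in MFL NK and at 120, 139 and 137 CPM in LM CD49a+ NK cells. The 3 LM libraries lay close together and well below the MFL libraries (log2 fold change −2.35 ± 0.31, adjusted p = 0.00113). Cma1, a chymase gene of mast cells that mature NK cells also express, fell from 188, 126 and 95 CPM to 9.78, 17.5 and 16.4 CPM (−3.23 ± 0.43, adjusted p = 0.00128). Itgam, which encodes CD11b, was at 1165, 866 and 776 CPM in MFL NK and at 136, 314 and 309 CPM in LM CD49a+ NK cells (−1.88 ± 0.29, adjusted p = 0.00524), and its partner chain Itgb2, which encodes CD18, was at 1908, 1698 and 1459 CPM against 516, 599 and 735 CPM (−1.45 ± 0.25, adjusted p = 0.0112). Itga4, the α4 integrin chain CD49d, was at 2329, 1826 and 2137 CPM against 764, 756 and 794 CPM (−1.44 ± 0.20, adjusted p = 0.00144). These 5 genes were called in every fit that left out a library. Spn, which encodes CD43 (−1.07 ± 0.24, adjusted p = 0.0685), and Rap1gap2, a GTPase activator of Rap1 (−1.33 ± 0.29, adjusted p = 0.0613), were each called in 1 of 6 such fits, Spn without LM CD49a+ NK replicate 2 and Rap1gap2 without LM CD49a+ NK replicate 3, with adjusted p of 0.127 to 0.359 in the others.

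LM CD49a- NK cells, which were also sorted from digested metastases, kept higher levels of several of them. Zeb2 was at 415, 434 and 458 CPM there, between the 2 populations compared, and the difference of LM CD49a+ from LM CD49a- NK cells was −1.72 on the log2 scale (adjusted p = 0.0402). Itgam (758 to 921 CPM, −1.72, adjusted p = 0.0402), Itga4 (1544 to 1763 CPM, −1.13, adjusted p = 0.0402) and Cma1 (71.3 to 118 CPM, −2.62, adjusted p = 0.0268) were called lower in LM CD49a+ NK cells in that comparison as well. All 4 calls were lost without LM CD49a+ NK replicate 1 (adjusted p of 0.108 to 0.168) and with limma-voom (0.128 to 0.62). Those of Zeb2 and Itga4 were also lost without LM CD49a+ NK replicate 2 (adjusted p = 0.104 and 0.106). From the 6 libraries of that comparison alone, Zeb2 stayed called (adjusted p = 0.0855) and Itgam, Itga4 and Cma1 did not (0.431, 0.922 and 0.431). Itgb2 was at 907, 931 and 1462 CPM in LM CD49a- NK cells and was not called between the LM populations (−0.84, adjusted p = 0.281). In MFL ILC1, Zeb2 was at 11.7 to 37.1 CPM and Itgam at 31.6 to 48.5 CPM, so the LM CD49a+ NK levels were lower than in MFL NK cells and higher than in ILC1.

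**Figure D2:**
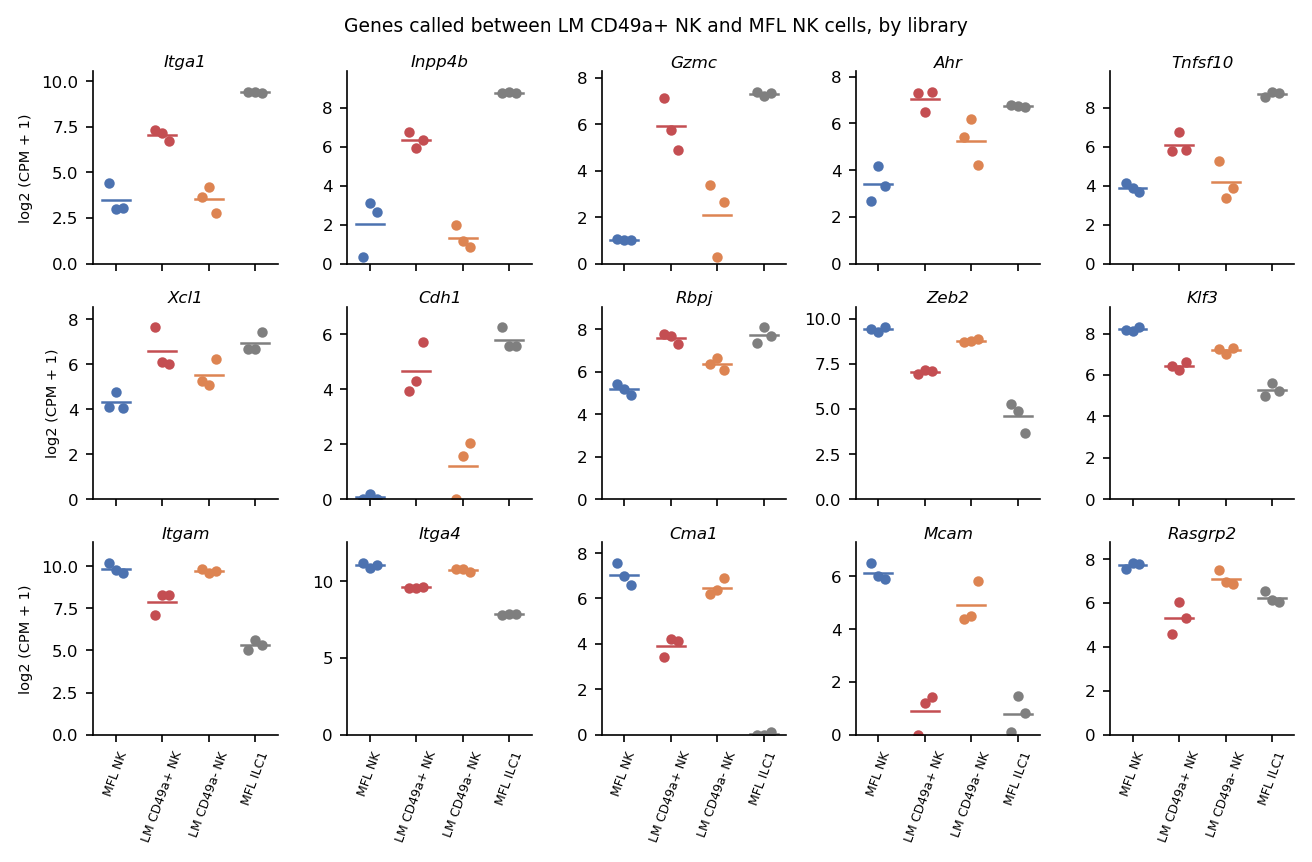
Each panel plots log2 (CPM + 1) of 1 gene, with a point for each of the 3 libraries and a line at their mean, in MFL NK, LM CD49a+ NK, LM CD49a- NK and MFL ILC1 cells. Itga1, Inpp4b and Gzmc are high in both CD49a+ populations, while Zeb2, Itgam, Itga4 and Cma1 fall from MFL NK to LM CD49a+ NK cells and are lowest in MFL ILC1.

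Among transcription factors of lymphoid lineages, 3 of 54 rose and 2 fell (median log2 fold change 0.05), and all but one of the 5 were called in every fit that left out a library. Besides Ahr and Zeb2 these were Rbpj, Klf3 and Hif1a. Rbpj (chromosome 5, 53623494 to 53814704), the DNA-binding partner of Notch, was at 41.2, 35.7 and 28.8 CPM in MFL NK and at 217, 204 and 159 CPM in LM CD49a+ NK cells. The groups were narrow and far apart (log2 fold change 2.46 ± 0.27, adjusted p = 0.000225). Rbpj was at 66 to 100 CPM in LM CD49a- NK cells (difference 1.23, adjusted p = 0.116) and at 164 to 270 CPM in MFL ILC1. Klf3, a zinc finger repressor, fell from 291, 274 and 314 CPM to 85.4, 74.2 and 97 CPM (−1.78 ± 0.24, adjusted p = 0.00128). Hif1a, which mediates the response to hypoxia, was at 85.1, 103 and 93.1 CPM against 153, 185 and 244 CPM (1.05 ± 0.23, adjusted p = 0.0662). It was not called without any one MFL NK library or without LM CD49a+ NK replicate 3 (adjusted p of 0.251 to 0.37).

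The factors that define NK cells themselves did not pass the test. Eomes, which separates NK cells from ILC1, was at 563, 721 and 721 CPM in MFL NK and at 500, 658 and 902 CPM in LM CD49a+ NK cells, with overlapping groups and a log2 difference of 0.04 ± 0.41 (adjusted p = 1) that was below 0 with limma-voom (−0.12) and without MFL NK replicate 1 (−0.0756) or LM CD49a+ NK replicate 3 (−0.211). It was at 7.58 to 40.2 CPM in MFL ILC1. Tbx21, which encodes T-bet, was at 456, 491 and 485 CPM against 366, 348 and 383 CPM, without overlap (−0.39 ± 0.22, adjusted p = 0.646). Klf2, a regulator of lymphocyte recirculation, was at 1271, 1098 and 887 CPM against 525, 278 and 357 CPM, a difference of −1.49 ± 0.37 that missed the threshold (adjusted p = 0.107) and passed it with DESeq2 and limma-voom (0.011 and 0.0115). Of the 12 genes of NK and type 1 ILC identity, none was called by edgeR and 6 had an unadjusted p under 0.05. All 12 passed the filter on low counts, 10 were below 0 and 2 above, and the median was −0.39. Every LM CD49a+ NK library was lower in 5 (13% of all genes) and higher in 1.

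Sequences upstream of the genes were read to see what the called genes share. RefSeq promoters of build GRCm38.p6, each 250 bases before the start, were given for 64 of the 88 called genes (41 higher, 23 lower) and for 9172 of the genes tested. The letters GGTGTGA, a core of the sites that T-box factors such as Eomes and T-bet bind, stood on either strand in 4 of 41 higher genes (9.76%), in 4 of 23 lower genes (17.4%) and in 306 of all 9172 (3.34%). The windows that hold them follow for 7 of these 8 genes (the other is Rara, which was higher), with the letters in capitals, as GGTGTGA or, on the other strand, TCACACC. The windows of Xcl1, Nr4a3 and Maff belong to genes that were higher in LM CD49a+ NK cells, and those of Itga4, Cd48, Arhgef18 and Rap1gap2 to genes that were lower.
Xcl1 (chr1:164935692-164935722, minus strand): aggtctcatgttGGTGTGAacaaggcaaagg
Nr4a3 (chr4:48045258-48045288, plus strand): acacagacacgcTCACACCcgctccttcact
Maff (chr15:79348226-79348256, plus strand): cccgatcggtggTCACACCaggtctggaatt
Itga4 (chr2:79255249-79255279, plus strand): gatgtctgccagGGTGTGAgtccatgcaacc
Cd48 (chr1:171681907-171681937, plus strand): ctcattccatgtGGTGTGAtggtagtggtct
Arhgef18 (chr8:3353313-3353343, plus strand): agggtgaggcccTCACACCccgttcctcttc
Rap1gap2 (chr11:74559111-74559141, minus strand): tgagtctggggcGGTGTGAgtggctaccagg
Genes of both directions thus hold the same letters, and a match in these windows is a description that does not show binding.

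Other motifs were searched in the same way. AP-1 letters (TGANTCA) stood in 2 of 41 higher genes (4.88%), 1 of 23 lower genes (4.35%) and 5.26% of all. One of them is Zeb2, whose promoter holds the letters at 2 places, and another is Osgin1, an oxidative stress gene.
Zeb2 (chr2:45110448-45110478, minus strand): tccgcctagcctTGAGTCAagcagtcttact
Zeb2 (chr2:45110391-45110421, minus strand): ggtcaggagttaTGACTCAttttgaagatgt
Osgin1 (chr8:119437038-119437068, plus strand): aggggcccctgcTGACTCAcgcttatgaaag
The core of the aryl hydrocarbon response element (GCGTG) stood in 43.9% of higher genes, 39.1% of lower genes and 50.1% of all, on either strand, and in Osgin1 it overlaps the AP-1 letters. A STAT site (TTCNNNGAA) stood in 7.32%, 13% and 7.05%, and an interferon response element (GAAA, any 2 bases, GAAA) in 4.88% of higher genes, in 0 of 23 lower genes and in 3.26% of all.

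Adhesion and trafficking genes moved in both directions. Of 29 integrin and adhesion genes tested, 3 rose and 3 fell (median log2 fold change 0.13), and the 3 that fell were the integrin chains Itga4, Itgam and Itgb2. Emb, which encodes embigin, a membrane glycoprotein, was at 33.8, 94.5 and 103 CPM in MFL NK and at 636, 282 and 712 CPM in LM CD49a+ NK cells (2.82 ± 0.55, adjusted p = 0.0262), and was not called without MFL NK replicate 1 (adjusted p = 0.162). Itgb1, the chain that pairs with CD49a, was higher in each LM library, at 1057, 1155 and 1207 CPM against 694, 762 and 690 CPM, but was not called (0.67 ± 0.23, adjusted p = 0.344), and passed with DESeq2 and limma-voom (0.0628 and 0.0181). Itgal, which pairs with CD18 to form LFA-1, was at 1537, 1432 and 1164 CPM against 840, 1018 and 959 CPM (−0.55 ± 0.21, adjusted p = 0.418).

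Beyond the lists, Mcam, Cd48, Thy1 and Rasgrp2 were surface or adhesion-signaling genes among the calls. Mcam (chromosome 9, 44045504 to 44054025), the adhesion molecule CD146, was at 89.7, 63.5 and 58.4 CPM in MFL NK and close to the limit of detection in LM CD49a+ NK cells, at 0, 1.33 and 1.69 CPM. Its log2 fold change was −6.11 ± 1.10 (adjusted p = 0.0184), and it was not called without MFL NK replicate 1 (adjusted p = 0.117). In LM CD49a- NK cells it was at 20.1, 21.3 and 55.5 CPM, and in MFL ILC1 at 0.0849, 1.76 and 0.758 CPM. Rasgrp2, an exchange factor that activates Rap1 and through it integrins, fell from 187, 225 and 220 CPM to 22.9, 64.8 and 38.5 CPM (−2.32 ± 0.34, adjusted p = 0.00256), in every fit that left out a library, and was lower than in LM CD49a- NK cells too (−1.72, adjusted p = 0.0827). The latter call was lost without LM CD49a+ NK replicate 1 or 3 or LM CD49a- NK replicate 1 (adjusted p of 0.12 to 0.207). It was also lost with limma-voom (0.563) and from the 6 libraries of that comparison alone (0.922). Cd48, the ligand of the receptor 2B4, was at 134, 120 and 90.1 CPM against 30.2, 46.2 and 27.2 CPM (−1.73 ± 0.32, adjusted p = 0.0208, and 0.132 without MFL NK replicate 1). Thy1, which encodes CD90, was at 70.1, 84.2 and 63.4 CPM against 284, 328 and 231 CPM (1.95 ± 0.35, adjusted p = 0.0184). It was not called without MFL NK replicate 1 or 3 (adjusted p = 0.125 and 0.127).

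Receptors of target recognition gave lower calls among Ly49 genes and higher calls on the list of inhibitory receptors and ligands. Of 11 Ly49 genes tested, 2 fell and none rose, where 0.221% of all genes fell. Their median log2 fold change was −1.29. Every LM CD49a+ NK library lay below every MFL NK library in 8 of them, and in 13% of all genes. Klra8, which encodes the activating receptor Ly49H, was at 496, 410 and 453 CPM against 202, 161 and 143 CPM (−1.43 ± 0.29, adjusted p = 0.0323), and was lost without MFL NK replicate 1 or 3 or LM CD49a+ NK replicate 3 (adjusted p of 0.127 to 0.16). The pseudogene Klra13-ps (−2.17 ± 0.49, adjusted p = 0.0662) was called in 1 of 6 such fits, without LM CD49a+ NK replicate 2, and had adjusted p of 0.119 to 0.324 in the others. Ly49 genes are near-identical, so reads may be split between them. Klra4, at 444, 360 and 301 CPM against 132, 89.9 and 70.2 CPM, was not called (−1.92 ± 0.62, adjusted p = 0.312). Of 14 NKG2 and NKR-P1 genes, 1 rose (Klrb1b, above) and none fell, although 12 were below 0 and the median was −0.58. In 8 of them every LM CD49a+ NK library lay below every MFL NK library, as it did in 13% of all genes. Klrk1, the activating receptor NKG2D, was at 1053, 789 and 816 CPM against 574, 623 and 525 CPM (−0.63 ± 0.22, adjusted p = 0.357). Klrg1, the receptor of E-cadherin, was at 148, 79.2 and 63.5 CPM against 4.65, 23.2 and 25.5 CPM (−2.44 ± 0.68, adjusted p = 0.193, and 0.0302 by DESeq2). Neither overlapped between the groups.

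Of 14 genes tested on the list of inhibitory receptors and ligands, 3 rose and none fell (median log2 fold change 1.70), where 0.427% of all genes rose. The list also holds Lilrb4b, which is not taken here as an inhibitory receptor. Cd274, which encodes PD-L1, was at 29.4, 37.3 and 31.2 CPM in MFL NK and at 173, 68.9 and 164 CPM in LM CD49a+ NK cells (2.05 ± 0.40, adjusted p = 0.0262). It was not called without any one MFL NK library or without LM CD49a+ NK replicate 1 (adjusted p of 0.103 to 0.171). Lilrb4b was at 79, 78.3 and 85.5 CPM against 507, 199 and 355 CPM (2.13 ± 0.40, adjusted p = 0.0212), and its close copy Lilrb4a, with which it may share reads, at 69.4, 54.8 and 58.4 CPM against 331, 184 and 183 CPM (1.93 ± 0.44, adjusted p = 0.067). Without any one MFL NK library or LM CD49a+ NK replicate 1 neither was called, with adjusted p of 0.102 to 0.144 for Lilrb4b and 0.236 to 0.335 for Lilrb4a. Tigit overlapped between the groups, at 89.6, 32 and 38 CPM against 192, 63.6 and 185 CPM, and was not called (adjusted p = 0.258), but was without LM CD49a+ NK replicate 2 (adjusted p = 0.0632). None of 31 activating receptors and adaptors was called by edgeR, with 10 at an unadjusted p under 0.05 and a median of −0.04.

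Genes of the cytotoxic machinery lay on both sides of 0, and those that passed were higher. Of 25 granule and death ligand genes tested, 3 rose (Gzmc, Tnfsf10 and Lyst) and none fell, where 0.427% of all genes rose. Gzmc and Tnfsf10 are also counted among the ILC1 and residency genes above. The median log2 fold change of the granule list was 0.03, with 14 genes above 0 and 11 below. Every LM CD49a+ NK library was higher in 6 and lower in 4. Prf1, the gene of the pore-forming protein perforin, was at 1571, 1171 and 994 CPM in MFL NK and at 491, 630 and 748 CPM in LM CD49a+ NK cells. These groups did not overlap, and the difference of −0.999 ± 0.24 missed the threshold with edgeR (adjusted p = 0.104) and passed it with DESeq2 and limma-voom (0.00791 and 0.0225). Gzma, at 3472, 2070 and 1293 CPM against 1051, 1235 and 1308 CPM, overlapped between the groups and its MFL NK libraries spread widely (−0.93 ± 0.35, adjusted p = 0.401). Gzmb, at 2012, 1090 and 935 CPM against 1266, 962 and 1036 CPM, also overlapped (−0.31 ± 0.28, adjusted p = 0.911), and its sign turned without MFL NK replicate 1 (0.0984). Lyst, a regulator of lysosome and granule traffic, rose from 148, 152 and 157 CPM to 329, 418 and 427 CPM (1.36 ± 0.26, adjusted p = 0.0212), and was lost when any one MFL NK library was left out (adjusted p of 0.125 to 0.144).

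Secreted factors were mixed, with 2 of 24 higher (Xcl1 and Tgfb1) and 1 lower, and a median of 0.89. Ccl5, a chemokine that NK cells store and release in quantity, was at 2994, 2049 and 1602 CPM in MFL NK and at 499, 873 and 1133 CPM in LM CD49a+ NK cells (−1.41 ± 0.30, adjusted p = 0.048). It was not called without MFL NK replicate 1 or 2 or LM CD49a+ NK replicate 1 (adjusted p of 0.121 to 0.292). Ccl3 was at 336, 285 and 291 CPM against 80, 42.1 and 106 CPM (−2.0 ± 0.48, adjusted p = 0.103) and Ccl4 at 217, 179 and 154 CPM against 77.6, 43.3 and 111 CPM (−1.24 ± 0.45, adjusted p = 0.392). Both were lower in every LM library without passing edgeR's test, and Ccl3 passed with DESeq2 (adjusted p = 0.00689) and limma-voom (0.0272).

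**Figure D3:**
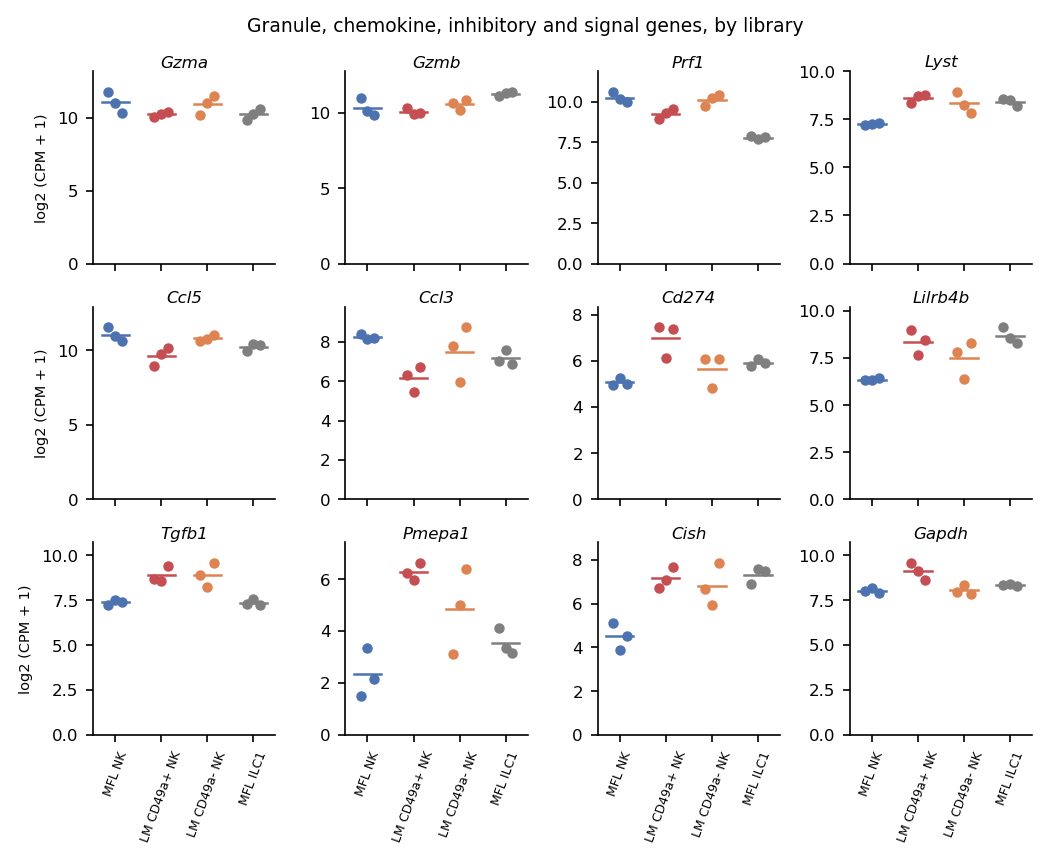
Log2 (CPM + 1) of granule genes, chemokines, genes of the inhibitory receptor and ligand list and signal genes is plotted by library. A line marks the mean of 3 libraries in each of MFL NK, LM CD49a+ NK, LM CD49a- NK and MFL ILC1 cells. Gzma and Gzmb overlap between MFL NK and LM CD49a+ NK cells, whereas Cd274, Lilrb4b, Tgfb1, Pmepa1 and Cish do not.

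Signal pathways that act on NK cells in tissue were read by their ligands, receptors and targets. In the TGF-β pathway, 3 of 35 genes rose and none fell (median log2 fold change 0.44). The ligand Tgfb1 was at 150, 183 and 170 CPM in MFL NK and at 409, 381 and 688 CPM in LM CD49a+ NK cells (1.55 ± 0.30, adjusted p = 0.0262), and was not called without any one MFL NK library or without LM CD49a+ NK replicate 3 (adjusted p of 0.102 to 0.171). Among 14 receptors and SMADs none was called by edgeR (5 had an unadjusted p under 0.05), and the receptor Tgfbr2 was at 163, 168 and 148 CPM against 194, 237 and 233 CPM (0.47 ± 0.21, adjusted p = 0.473). Of 13 inhibitors and targets 2 rose. Pmepa1, which TGF-β induces and which limits its signal, was at 1.8, 9.14 and 3.45 CPM against 75.2, 60.7 and 97.4 CPM (4.02 ± 0.79, adjusted p = 0.0279). The log2 fold change was 4.88 without MFL NK replicate 2, and Pmepa1 was not called without MFL NK replicate 1 or 3 (adjusted p = 0.171 and 0.188). Ski, a repressor of SMAD complexes, was at 167, 196 and 176 CPM against 280, 338 and 579 CPM (1.15 ± 0.25, adjusted p = 0.0526, and 0.18 to 0.292 without any one MFL NK library or LM CD49a+ NK replicate 3). Smad7, another induced inhibitor, was higher in every LM library, at 330, 181 and 725 CPM against 121, 126 and 120 CPM (1.75 ± 0.43, adjusted p = 0.105), and was called without LM CD49a+ NK replicate 2 (adjusted p = 0.0233). In LM CD49a- NK cells Tgfb1 was at 305 to 759 CPM and Smad7 at 198 to 695 CPM, and neither differed by a called amount between the LM populations (log2 differences −0.06 and −0.08, adjusted p = 0.976 for both).

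Of 37 cytokine receptor and JAK-STAT genes, 1 rose and none fell (median 0.12). This was Cish, a SOCS family protein that IL-2 and IL-15 induce and that limits their signal in NK cells, at 33.9, 13.6 and 22 CPM in MFL NK and at 103, 134 and 206 CPM in LM CD49a+ NK cells. The call (2.67 ± 0.45, adjusted p = 0.0112) held in every fit that left out a library. Cish was at 59.9 to 231 CPM in LM CD49a- NK cells, with a difference of 0.17 between the LM populations (adjusted p = 0.932). Il2rb, the β chain of the receptor of both cytokines, was at 1979, 2129 and 1961 CPM against 2747, 2488 and 3115 CPM (0.46 ± 0.20, adjusted p = 0.48), and passed with DESeq2 (0.0682).

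Type I interferon genes were mostly above 0 without passing singly. Of 52 tested, 47 had a log2 fold change above 0, 1 was called (Ly6e) and 13 had an unadjusted p under 0.05, with a median of 0.82. Ifit1, at 5.88, 7.52 and 5.73 CPM against 52.6, 32.6 and 29.9 CPM, did not overlap between the groups (2.59 ± 1.07, adjusted p = 0.443). Rsad2 behaved alike, at 3.27, 7.59 and 4.7 CPM against 43.4, 36.2 and 22.2 CPM (2.71 ± 1.27, adjusted p = 0.507), and both were at 0 to 7.91 CPM in LM CD49a- NK cells. Mx1 was at 107, 96.6 and 9.47 CPM in LM CD49a+ NK cells, and LM library 3 fell below all MFL NK libraries (31.1 to 41.6 CPM).

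Metabolic and growth genes were read by list. In glycolysis and the hypoxia response, 2 of 38 rose and none fell (median 0.53), where 0.427% of all genes rose. Gapdh was at 253, 283 and 235 CPM in MFL NK and at 755, 559 and 396 CPM in LM CD49a+ NK cells (1.15 ± 0.24, adjusted p = 0.0438), but not called without any one MFL NK library or LM CD49a+ NK replicate 1 (adjusted p of 0.149 to 0.265). Gpi1, an enzyme of upper glycolysis, was at 166, 170 and 154 CPM against 350, 304 and 318 CPM (0.99 ± 0.22, adjusted p = 0.0662) and was called in 1 of 6 such fits, without LM CD49a+ NK replicate 2 (adjusted p of 0.134 to 0.376 in the others). None of 77 G2/M and mitosis genes was called by edgeR (6 with an unadjusted p under 0.05, median 0.62). Of these, 63 were above 0 and 14 below. Every LM CD49a+ NK library was higher in 21 (7.06% of all genes) and lower in 2. Their sum was 2730 to 3060 CPM in MFL NK and 3530 to 4570 CPM in LM CD49a+ NK cells, without overlap. None of 65 S phase genes was called (3 with an unadjusted p under 0.05, median 0.20). They summed to 2130 to 2440 CPM and 2550 to 3400 CPM, also without overlap. Of 81 cytosolic ribosomal protein genes none was called (32 with an unadjusted p under 0.05), 80 were above 0 and the median was 0.72. Summed over the list these genes stood at 34300, 28100 and 16100 CPM in MFL NK and at 56400, 40700 and 32500 CPM in LM CD49a+ NK cells, and these ranges overlapped.

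Car2, carbonic anhydrase II, an enzyme of acid-base balance, showed the smallest spread of the leading genes. It (chromosome 3, 14951317 to 14967568) was at 132, 130 and 121 CPM in MFL NK and at 403, 409 and 424 CPM in LM CD49a+ NK cells, with 1.69 ± 0.20 on the log2 scale (adjusted p = 0.000392), and was called in every fit that left out a library. LM CD49a- NK cells lay between, at 248 to 286 CPM (difference 0.62, adjusted p = 0.321), and MFL ILC1 at 85.6 to 110 CPM. Cpne7, a calcium-dependent membrane-binding copine, fell from 89.1, 54.4 and 69 CPM to 21.3, 14.8 and 16.2 CPM (−2.02 ± 0.31, adjusted p = 0.00442). It was called in every such fit and lost with limma-voom (−1.84, adjusted p = 0.183). It was at 58.9 to 103 CPM in LM CD49a- NK cells. The difference between the LM populations was −2.12 (adjusted p = 0.0118), and was not called with limma-voom (0.643) or from their 6 libraries alone (0.922). Cpne7 was highest in MFL ILC1, at 186 to 281 CPM, so it did not follow the ILC1 levels.

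Osgin1, induced by oxidative stress, was at 1.55, 4.13 and 5.8 CPM in MFL NK and at 77.2, 29.9 and 103 CPM in LM CD49a+ NK cells (4.19 ± 0.78, adjusted p = 0.0212, and 0.144 without MFL NK replicate 1). Gdpd5, a glycerophosphodiester phosphodiesterase, was at 0.245, 8.92 and 4.99 CPM against 45.8, 51.7 and 85.2 CPM (3.68 ± 0.85, adjusted p = 0.0784). It was 4.52 without MFL NK replicate 2, and was called in 2 of the 6 fits that left out a library (without MFL NK or LM CD49a+ NK replicate 2, and at 0.13 to 0.308 in the others). Gramd2b was at 11.4, 21.7 and 27.4 CPM against 189, 59.4 and 415 CPM (3.46 ± 0.71, adjusted p = 0.04). Without LM CD49a+ NK replicate 3 this was 2.62, and it was called without LM CD49a+ NK replicate 1 or 2 and not in the other 4 fits (adjusted p of 0.127 to 0.26). Uckl1, a uridine-cytidine kinase-like gene, was at 42.1, 40.5 and 40.6 CPM against 8.71, 11.4 and 4.18 CPM (−2.34 ± 0.51, adjusted p = 0.0571), and was called in 1 of 6 such fits, without LM CD49a+ NK replicate 2 (adjusted p of 0.148 to 0.265 in the others), and not with limma-voom (0.135). The gene model Gm4956 was at 97.1, 63.8 and 59.1 CPM against 5.33, 10.6 and 18.6 CPM (−2.67 ± 0.58, adjusted p = 0.057). Its call held without LM CD49a+ NK replicate 3 and in no other such fit (adjusted p of 0.122 to 0.269), and was lost with limma-voom (0.187).

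Early response and heat shock genes, which tissue dissociation at 37°C is known to induce, were high in most libraries of both LM populations. Of 29 AP-1, EGR and NR4A genes 3 rose and none fell (median 0.82). Their summed level was 11200, 10100 and 9600 CPM in MFL NK, 16800, 7700 and 24900 CPM in LM CD49a+ NK and 22900, 9050 and 29100 CPM in LM CD49a- NK cells. The library numbered 2 was the lowest of each LM group and lay below the MFL NK libraries in both. Nr4a3, an orphan nuclear receptor, was at 112, 169 and 193 CPM in MFL NK and at 682, 324 and 2187 CPM in LM CD49a+ NK cells (2.75 ± 0.57, adjusted p = 0.04). The value was 1.67 without LM CD49a+ NK replicate 3, and the call was lost without that library or any one MFL NK library (adjusted p of 0.127 to 0.26). Fosl2, a FOS family subunit of AP-1, was at 256, 294 and 340 CPM against 1261, 420 and 2158 CPM (2.11 ± 0.49, adjusted p = 0.0831), and Maff, a small MAF protein, at 26.3, 20.8 and 23.3 CPM against 169, 46.7 and 275 CPM (2.80 ± 0.66, adjusted p = 0.0837). Without LM CD49a+ NK replicate 3 the values were 1.5 and 2.19, and both were called in 1 of 6 such fits, without LM CD49a+ NK replicate 2 (adjusted p of 0.221 to 0.363 in the others). In LM CD49a- NK cells Nr4a3 was at 622 to 2546 CPM, Fosl2 at 572 to 2314 CPM and Maff at 28.6 to 200 CPM, and none of the 3 differed by a called amount between the LM populations (adjusted p of 0.756 to 0.974).

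Of 16 heat shock chaperones 2 rose and none fell (median 0.65). Hspa1b was at 79.2, 91.5 and 66.1 CPM in MFL NK and at 514, 1654 and 454 CPM in LM CD49a+ NK cells (3.47 ± 0.57, adjusted p = 0.00858), with 2.61 and the call kept without LM CD49a+ NK replicate 2. Its near-identical neighbor Hspa1a, with which reads may be shared, was at 43.4, 48.3 and 48 CPM against 331, 854 and 225 CPM (3.34 ± 0.69, adjusted p = 0.0385). It was 2.57 without LM CD49a+ NK replicate 2, and was not called without that library or any one MFL NK library (adjusted p of 0.106 to 0.224). In LM CD49a- NK cells they stood at 608 to 1262 CPM and 316 to 908 CPM, and the LM populations did not differ by a called amount (adjusted p = 0.914 and 0.798). For early response and heat shock genes alike, growth in a metastasis and its digestion cannot be told apart.

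Mitochondrially encoded genes held the lowest fold change of all called genes. mt-Atp6, a subunit of ATP synthase, had 1592, 1618 and 2293 counts in MFL NK cells and 0 counts in each of the 3 LM CD49a+ NK libraries, which is at least 512-fold lower against a floor of 3 counts per library (adjusted p = 1.57e-07). The same gene had 0 counts in the 3 LM CD49a- NK libraries and was at 158 to 177 CPM in MFL ILC1. Its neighbor mt-Atp8, whose annotated range overlaps that of mt-Atp6, was at 76.4, 34.9 and 32.2 CPM in MFL NK and at 41.1, 23.6 and 48.3 CPM in LM CD49a+ NK cells, with overlapping groups. Because reads of overlapping transcripts are shared out between them when transcripts are quantified, the 0 counts of mt-Atp6 may not stand for an absent transcript, and this was not tested. mt-Co1 was at 5580, 2633 and 2127 CPM against 3255, 1415 and 2629 CPM, with overlapping groups too. mt-Co3 was at 62.6, 49.6 and 56.9 CPM against 0, 9.86 and 9.27 CPM, and mt-Nd3 at 74.4, 34.7 and 23.5 CPM against 0, 17.8 and 0 CPM. Neither overlapped between the groups, and neither was called (adjusted p = 0.435 and 0.643). Of 12 such genes 1 was called, all 12 were below 0 and the median was −0.82, while the share of counts in mitochondrial, ribosomal RNA and small RNA genes was 5.43% to 13.4% in MFL NK and 5.34% to 9.1% in LM CD49a+ NK cells.

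**Figure D4:**
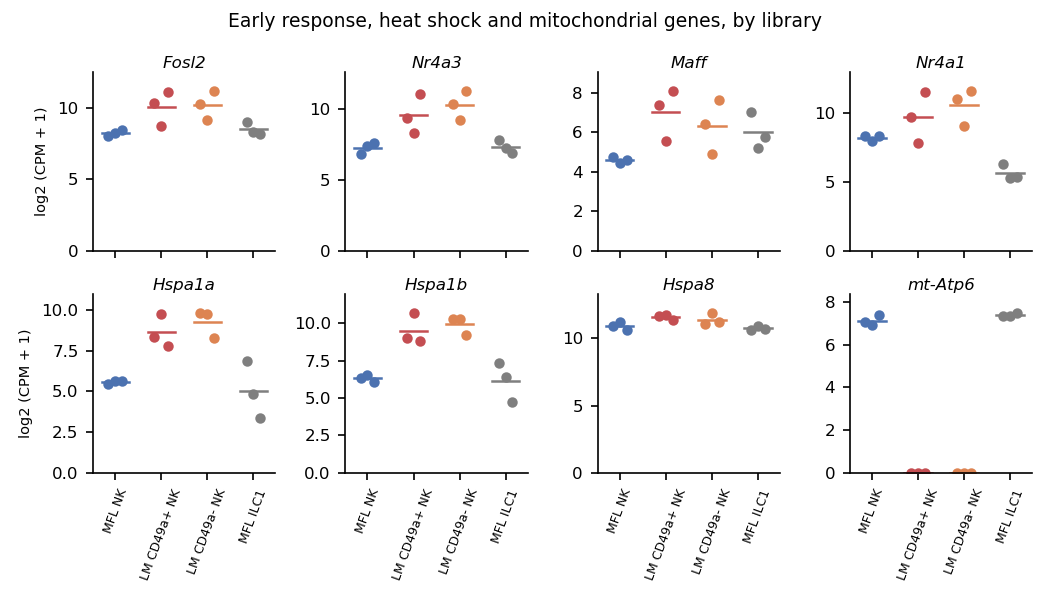
Log2 (CPM + 1) of early response genes, heat shock genes and mt-Atp6 is plotted by library for MFL NK, LM CD49a+ NK, LM CD49a- NK and MFL ILC1 cells, with a line at the mean of each 3 libraries. Fosl2, Nr4a3, Hspa1a and Hspa1b are high in both LM populations, and mt-Atp6 is at 0 in all 6 LM libraries and in none of the MFL libraries.

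**Figure D5:**
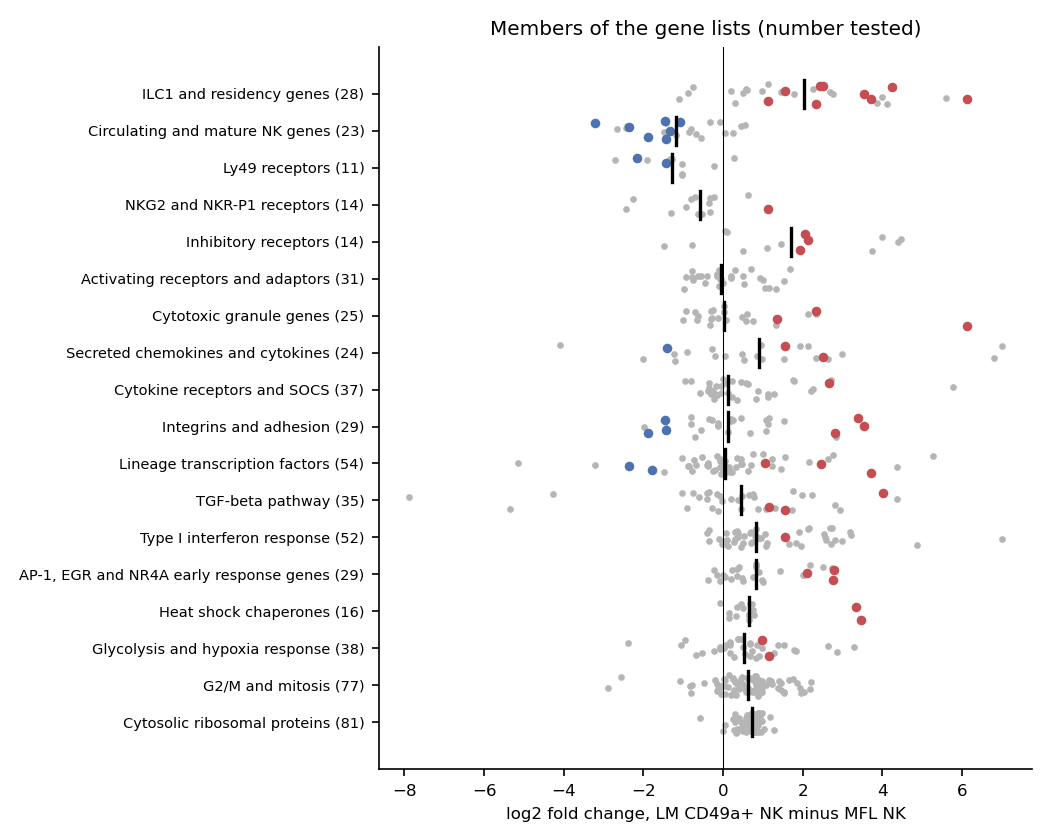
The x axis gives the log2 fold change (LM CD49a+ NK minus MFL NK) of each tested member of a gene list, and each row is a list with its number of tested members. Called members are red where higher and blue where lower, the others are grey, and the black bar is the median, which is 2.02 for ILC1 and residency genes, −1.17 for circulating and mature NK genes and 0.03 for cytotoxic granule genes.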

How the data were processed

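Total RNA of sorted cells was sequenced with a stranded low-input kit. The authors trimmed the reads, quantified them with Salmon 1.5.0 against GENCODE M27 (GRCm39) and summed transcripts with tximport. The file they deposited holds estimated counts of 54309 genes, not normalized. Here the counts were rounded, and 53700 gene IDs were named and placed with GENCODE vM39. In R 4.3.3, 13594 genes passed filterByExpr and were compared by edgeR 4.0.16 (TMM scaling, quasi-likelihood F), all 12 lymphocyte libraries fitted together, with Benjamini-Hochberg adjustment over all genes and calls at 0.1. limma 3.58.1 (voom) and DESeq2 1.42.0 were alternatives. SE is the fold change divided by the square root of F. Plots used matplotlib 3.10.9. The test was also run on simulated data, in which a gene had the same spread in every group, unlike in these libraries.

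The comparison and the gene lists were chosen with earlier results of these data known. Named are Itga1, Itga2 and Ncr1, the 12 called genes of largest change per direction with at least 5 CPM and no overlap (1 gene is not reported here), and list members. Thy1, Car2, Arhgef18 and Rara were added after their values were seen. Promoters are from RefSeq, which was not searched on chromosome 18.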

Additional observations from a re-analysis of the deposited data

How the results depend on the processing

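Calls between LM CD49a+ NK and MFL NK cells (58 higher, 30 lower) numbered 67 and 27 with DESeq2 size factors in edgeR, 59 and 35 from the 6 libraries alone, and 60 and 33 without mitochondrial, ribosomal RNA and small RNA genes. They numbered 190 and 172 by DESeq2's Wald test, 238 and 133 without the filter on low counts and 203 and 104 with limma-voom. All 88 genes were also called by DESeq2 and 85 with limma-voom, while 25 were lost from the 6 libraries alone, among them Ccl5, Fosl2, Gapdh, Gdpd5, Hif1a, Klrb1b, Nr4a3, Ski, Spn and Uckl1. Of the uncalled genes named, Ccl3, Itga2, Itgb1, Klf2, Ncr1, Pecam1, Prf1, Smad7 and Tigit passed with DESeq2 and with limma-voom, Klra4, Ifit1 and Rsad2 with limma-voom, and Il2rb and Klrg1 with DESeq2. With 1 library left out they ranged from 14 to 98 higher and from 10 to 64 lower. Called list members (28 higher, 11 lower) numbered 62 and 26, 79 and 33, and 74 and 28 under the last 3 settings, and ranged from 9 to 43 and from 6 to 18 with 1 library left out. Between the LM populations (9 higher, 10 lower), calls numbered 282 and 259 by DESeq2, 104 and 96 without the filter, 2 and 1 from the 6 libraries alone, and 0 and 0 with limma-voom, where 352 and 394 genes had an unadjusted p under 0.05. With 1 library left out they ranged from 3 to 210 and from 2 to 57. The causes were not tested.

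The sign turned for 4 uncalled genes. Eomes (0.04) was at −0.12 with limma-voom and from −0.211 to 0.212 with 1 library left out. The corresponding ranges were −0.514 to 0.0984 for Gzmb, −0.568 to 0.162 for mt-Atp8 and −0.785 to 0.026 for mt-Co1, all above 0 only without MFL NK replicate 1. The median log2 fold change of all genes moved from −0.0398 to −0.269 with limma-voom, −0.138 with the replicate block, −0.159 without LM CD49a+ NK replicate 2 and −0.117 without the filter, and stayed within 0.1 of 0 otherwise.

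The cells came from 3 sortings, but no source used here ties the replicate numbers to them. Deviations of same-numbered libraries from their group means correlated at −0.003 to 0.0459. With the replicate block, calls were 61 and 40 against MFL NK cells (30 and 16 list members) and 13 and 11 between the LM populations, and the block made calls of Klf2, Ccl3, Itga2 and Smad7 (adjusted p of 0.0188, 0.0426, 0.0979 and 0.0561). Precision is limited by 3 libraries a group and by their spread, as edgeR's common biological coefficient of variation (0.511 in MFL NK, 1.07 in LM CD49a+ NK and 1.22 in LM CD49a- NK cells).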
